A study of Mus musculus with 16 samples.

Results

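The genes described here are 8 enzymes that carry nitrogen through glutamine, proline, ornithine, citrulline, arginine and the polyamines in the gut: Cps1, Otc, Aldh18a1, Oat, Prodh, Ass1, Asl and Odc1. They were chosen by symbol from a raw count table of 21965 genes, every one of the 8 was found under its own Ensembl identifier, and 8 of 8 were among the 13811 genes tested. The table holds poly(A) RNA-seq of a segment of whole terminal ileum from each of 16 male C57BL/6 mice that were 8 to 10 weeks old when feeding began. Wild-type mice (WT) were compared with fat-1 littermates, which carry 1 copy of a Caenorhabditis elegans n3 fatty acid desaturase that turns n6 into n3 fatty acids in every tissue; the labels spell this genotype Fat1+/-, and it is not the mouse gene Fat1. Each mouse ate a liquid Lieber-DeCarli diet for 6 weeks. In the ethanol-fed (EtOH) groups ethanol was raised stepwise to 6% for the last 3 weeks, and the pair-fed (PF) groups got maltose dextrin of equal calories in its place. With 1 library a mouse, the PF groups held 4 WT and 4 fat-1 mice, and the EtOH groups 3 WT and 5 fat-1 mice.

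In the small intestine, glutamine is a main fuel of enterocytes and the nitrogen source for citrulline, which the gut releases and the kidney turns into arginine. Aldh18a1 (pyrroline-5-carboxylate synthase) reduces glutamate, Prodh (proline dehydrogenase) makes the same intermediate from proline, and Oat (ornithine aminotransferase) converts it to ornithine. Cps1 (carbamoyl phosphate synthetase) and Otc (ornithine transcarbamylase), both mitochondrial, then make citrulline. Ass1 and Asl rebuild arginine from citrulline, and Odc1 (ornithine decarboxylase) commits ornithine to the polyamines.

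The libraries held 8422645 to 11438539 counts. Levels are given, library by library in replicate order, as CPM, counts per 1000000 of the TMM-adjusted library size, and 3 counts equalled 0.246 to 0.421 CPM. Markers of gut regions differed between libraries, and which segment each library came from was not tested. Fat-1 EtOH replicates 3 and 4 and WT EtOH replicate 2 had a summed level of 10 large intestine markers of 12386, 13401 and 5237 CPM, against 190 to 532 CPM in the other 13. Most of each of these 3 sums was Car1, a colonic carbonic anhydrase, with 11157, 12208 and 4041 CPM. Aqp8 of the same list was 168, 95.4 and 315 CPM there and at most 1.11 CPM elsewhere. Hoxb13 and Nxpe4, also listed, were at most 0.245 and 4.03 CPM in any library. Fat-1 PF replicates 2 and 4 had only 7.58 and 3.56 CPM of Slc10a2, the bile acid transporter that defines the ileum, against 394 CPM or more elsewhere. The markers of these 5 libraries go against a plain terminal ileum label. The calls of the enzymes and of the neighbouring genes named are therefore also given without these libraries. A sum of 15 markers of the proximal small intestine was 4612 to 63759 CPM in the 8 PF libraries and 309 to 2461 CPM in the 8 EtOH libraries, without overlap. Lct, the lactase gene, was 78.3 to 2979 CPM in PF and 0.171 to 2.3 CPM in EtOH libraries. A sum of 8 smooth muscle genes was 1074 to 1690 CPM in PF and 2170 to 4670 CPM in EtOH libraries, whereas a sum of 10 epithelial genes overlapped between diets. It was 13753, 13831 and 14554 CPM in fat-1 EtOH replicates 3, 4 and 5, and 16829 to 22900 CPM in the other 13 libraries. Fat-1 EtOH replicate 5 also had a sum of 9 B and T cell markers of 556 CPM, against 8.12 to 115 CPM elsewhere, and the counts of calls are also given without it. Diet and these marker levels cannot be told apart across the groups, and in whole tissue fewer cells of a type and less RNA per cell cannot be told apart either. Of hepatocytes, the classical site of a complete urea cycle, 8 markers summed to 15.8 to 175 CPM, and Alb among them was 0.111 to 3.28 CPM. The labels number the libraries 1 to 8 for PF and 9 to 16 for EtOH mice, so that order cannot be told apart from diet.

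**Figure D1:**
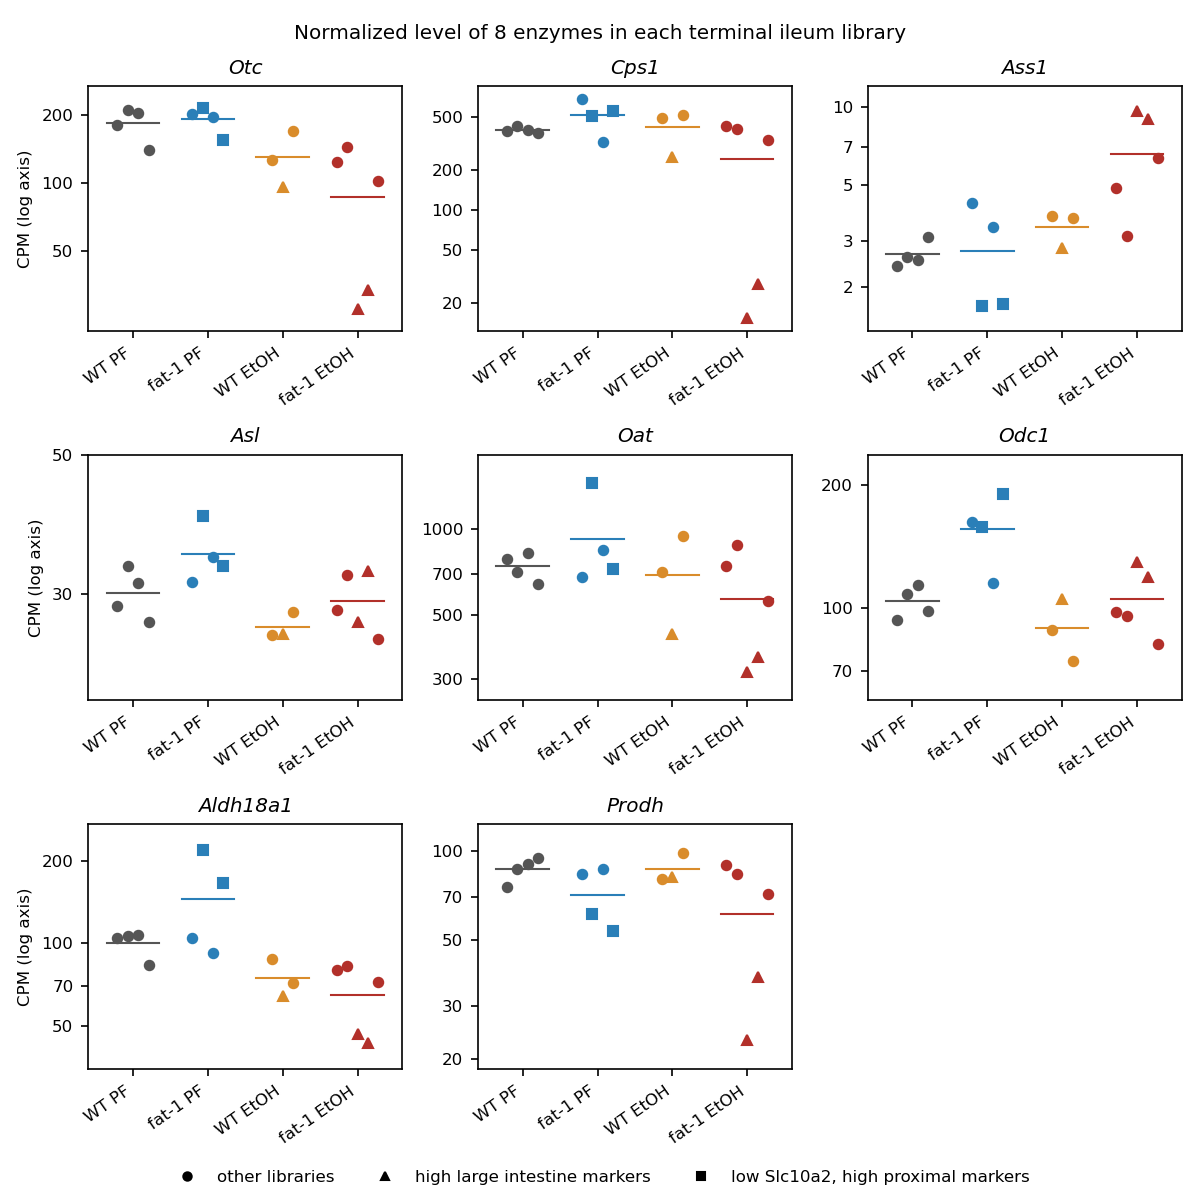
CPM of each of the 8 enzymes (log axes) in each of the 16 libraries, in columns for the 4 groups (PF of both genotypes, then EtOH of both), with a line at each group's mean. Triangles are the 3 EtOH libraries with high large intestine markers and squares the 2 fat-1 PF libraries with low Slc10a2: Cps1 was 15.3 and 27.4 CPM in 2 triangles, and Aldh18a1 was 219 and 166 CPM in the squares.

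Per kb of exon the 8 enzymes spanned a wide range of levels in WT PF ileum. Oat led with 314 ± 34.6 CPM per kb (mean ± SD, n = 4), followed by Cps1 (71.4 ± 3.91), Otc (43.4 ± 7.54) and Odc1 (30.4 ± 2.75). Aldh18a1 (24.7 ± 2.77), Prodh (11.2 ± 1.05), Asl (6.23 ± 0.561) and Ass1 (1.11 ± 0.129) made up the lower end. The libraries of Otc and Odc1 overlapped, and the other neighbours in this order did not. The 2 enzymes that make citrulline thus stood well above the 2 that turn it back into arginine. WT EtOH mice had the same order, from Oat at 294 ± 110 to Ass1 at 1.42 ± 0.214 CPM per kb (n = 3), again with an overlap of Otc and Odc1 only. In fat-1 PF mice Odc1 (45.9 ± 9.14, n = 4) and Otc (45.3 ± 6.08) were level and overlapped. In fat-1 EtOH mice Odc1 (30.8 ± 5.69, n = 5) had a higher mean than Otc (20.3 ± 12.5), with overlap, and each enzyme from Cps1 (43.3 ± 36.6) down to Prodh (7.84 ± 3.75) overlapped the next in order.

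Cps1 (chr1:67123026-67231259, plus strand) supplies the carbamoyl phosphate for citrulline and was the most variable member, with a 44.5-fold span from its lowest to its highest library. WT PF replicates 1 to 4 had 388, 426, 398 and 374 CPM. Fat-1 PF replicates 1 to 4 had 679, 508, 320 and 555 CPM. WT EtOH replicates 1 to 3 had 485, 247 and 517 CPM. All 11 of these libraries lay within 247 to 679 CPM, the lowest being the WT EtOH library with high large intestine markers. Fat-1 EtOH replicates 1 to 5 had 424, 405, 15.3, 27.4 and 331 CPM, so that 3 libraries lay within the range of the other groups and the 2 richest in large intestine markers lay far below it. Cps1 passed the test in no comparison. The log2 fold change of fat-1 EtOH against fat-1 PF was -1.10 with a standard error (SE) of 0.70 (edgeR adjusted p = 0.229), and without the 3 libraries with high large intestine markers it was -0.39 (SE 0.20, adjusted p = 0.147).

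Otc (chrX:10252305-10321024, plus strand) joins carbamoyl phosphate to ornithine to form citrulline. Its level was 181, 211, 204 and 140 CPM in the 4 WT PF libraries and 202, 216, 196 and 156 CPM in the 4 of fat-1 PF mice. It was 126, 95.8 and 171 CPM in WT EtOH replicates 1 to 3 and 124, 145, 27.5, 33.5 and 102 CPM in fat-1 EtOH replicates 1 to 5. The 5 fat-1 EtOH libraries were all below the 4 fat-1 PF libraries, whereas 1 WT EtOH library lay within the WT PF range. Otc fell in fat-1 mice with EtOH by 1.16 on the log2 scale (SE 0.40, 2.23-fold lower, adjusted p = 0.0346), and in the EtOH groups averaged over genotypes by 0.82 (SE 0.31, adjusted p = 0.0486). The lowest libraries were again those with high large intestine markers. Without these 3, Otc was still lower in the fat-1 comparison by 0.61 (SE 0.18, adjusted p = 0.0224) and in the averaged comparison by 0.46 (SE 0.13, adjusted p = 0.0195), with a much smaller SE in each. The call did not hold without the 2 fat-1 PF libraries with low Slc10a2 (log2 fold change -1.19, adjusted p = 0.123, in the fat-1 comparison). It was also lost in 5 of the 16 fits of that comparison, and in 12 of 16 of the averaged one, that left out 1 library (-1.42 to -0.92 and -0.96 to -0.70).

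Cps1 and Otc act in consecutive steps, and both were lowest in fat-1 EtOH replicate 3. In the 5 EtOH libraries with low large intestine markers Cps1 was 331 to 517 CPM, all within the PF range of 320 to 679 CPM. Otc was 102 to 171 CPM there, with 2 of the 5 (145 and 171 CPM) within the PF range of 140 to 216 CPM. The difference between the 2 genes was not tested.

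Of the 3 enzymes that make ornithine from glutamate and proline, Aldh18a1 was called and Oat and Prodh were not, and the differences between them were not tested. Aldh18a1 (chr19:40550257-40588463, minus strand) opens the route from glutamate. Its level was 105, 106, 107 and 83.6 CPM in the 4 WT PF libraries and 105, 219, 92.1 and 166 CPM in the 4 of fat-1 PF mice. It was 87.7, 64.2 and 71.8 CPM in WT EtOH replicates 1 to 3 and 79.9, 82.4, 46.5, 43.3 and 72.1 CPM in fat-1 EtOH replicates 1 to 5. Every fat-1 EtOH library was below every fat-1 PF library, and the highest 2 were the fat-1 PF libraries with low Slc10a2. Aldh18a1 fell by 1.16 on the log2 scale in fat-1 mice (SE 0.25, 2.24-fold lower, adjusted p = 0.00314) and by 0.80 averaged over genotypes (SE 0.19, 1.74-fold lower, adjusted p = 0.00617), and both calls held in all 16 fits that left out 1 library. In WT mice the log2 fold change was -0.43 (SE 0.29, adjusted p = 0.515). At the ends of the proximal marker range, the 2 fat-1 PF libraries with sums of 63759 and 60533 CPM had the most Aldh18a1, and WT PF replicate 4, with the smallest PF sum of 4612 CPM, had the least of the PF libraries. The other 5 PF libraries, with sums of 11958 to 21396 CPM, had 92.1 to 107 CPM and did not follow that order. The part of these marker levels in the diet difference was not tested. Without the 2 fat-1 PF libraries the fat-1 difference was -0.59 (SE 0.24, adjusted p = 0.101), and without all 5 libraries that stand apart it was -0.32 (SE 0.14, adjusted p = 0.133), while the averaged difference stayed past the threshold at -0.51 (adjusted p = 0.0403) and -0.32 (adjusted p = 0.0278).

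Oat (chr7:132557478-132576398, minus strand), which turns the shared intermediate into ornithine, was the most abundant of the 8. Its level was 784, 709, 829 and 644 CPM in the 4 WT PF libraries and 678, 1454, 848 and 725 CPM in the 4 of fat-1 PF mice. It was 708, 429 and 945 CPM in WT EtOH replicates 1 to 3 and 744, 882, 316, 356 and 562 CPM in fat-1 EtOH replicates 1 to 5. The groups overlapped in each comparison, and the lowest 3 libraries were those with high large intestine markers. The log2 fold change of fat-1 EtOH against fat-1 PF was -0.70 (SE 0.32, adjusted p = 0.0969) with all libraries and -0.05 (SE 0.21, adjusted p = 0.886) without the 5 that stand apart. In the 16 fits that left out 1 library it was -0.91 to -0.38, and Oat was called in 1, without fat-1 EtOH replicate 2.

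Prodh (chr16:18060357-18090203, minus strand), the mitochondrial enzyme that feeds proline into the same intermediate, was 75.6, 87.1, 90.7 and 94.7 CPM in the 4 WT PF libraries and 83.5, 61.2, 86.7 and 53.8 CPM in the 4 of fat-1 PF mice. It was 80.4, 81.9 and 98.6 CPM in WT EtOH replicates 1 to 3 and 89.6, 83.6, 23.1, 37.7 and 71.7 CPM in fat-1 EtOH replicates 1 to 5. The low values belonged to the 2 fat-1 EtOH libraries with high large intestine markers and to the 2 fat-1 PF libraries with low Slc10a2, so that Prodh was low at both ends of the marker range. WT EtOH replicate 2, the other library with high large intestine markers, kept 81.9 CPM. No comparison reached the threshold, and the averaged EtOH log2 fold change was -0.11 (SE 0.23, adjusted p = 0.732).

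The 120 bases just before the RefSeq start (GRCm38.p6) are shown for 2 members that fell with EtOH in fat-1 mice and stand at opposite ends of citrulline synthesis, each 5′ to 3′ on its gene's strand, with capitals marking CACGTG, the E-box letters, in Aldh18a1 and letters of the GATA site in Otc.
Otc, chrX:10252185-10252304, plus strand: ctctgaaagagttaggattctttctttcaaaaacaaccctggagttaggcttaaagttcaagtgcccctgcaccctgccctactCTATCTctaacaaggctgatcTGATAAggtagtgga
Aldh18a1, chr19:40588464-40588583, minus strand: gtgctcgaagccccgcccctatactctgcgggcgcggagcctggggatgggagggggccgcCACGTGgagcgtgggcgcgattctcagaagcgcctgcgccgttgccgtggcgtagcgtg
The Otc stretch was 44.2% G or C and held TGATAA starting 15 bases before the start and, on the other strand, AGATAG (printed as its reverse complement) starting 36 bases before it. The Aldh18a1 stretch was 72.5% G or C with CACGTG starting 59 bases before the start. A RefSeq window of 250 bases before to 50 after the start was at hand for 6 of the 8 members (Otc, Ass1, Oat, Odc1, Aldh18a1 and Prodh). On either strand CACGTG occurred in 2 of these 6 windows, Aldh18a1 and Ass1 (starting 36 bases before the start), and in 7.15% of 32851 mouse windows of that length. For GATA factors 4 spellings of their site were searched, of which AGATAA was in 0 of the 6 windows and 11.2% of all windows. TGATAA was in 1 of the 6, Otc, and in 9.05% of all. AGATAG was in the same 1 and in 8.95% of all. TGATAG was in 0 of the 6 and in 7.29% of all. Any of these spellings was in 1 of the 6 windows and 29.8% of all. For other factors only the letters given here were searched. None of the 6 held CAAAGTCCA, bound by HNF4 (0.475% of all windows), or GTTAAT, part of the HNF1 site (7.1%). The CDX letters TTTATTG, held by 4.6% of all windows, and TTTATGG, held by 2.75%, were absent too. So were TGACGTCA, the cAMP response element (1.79%), and the core promoter letters TATAAA (13.6%). These are matches of letters in a short window and no measurement of binding.

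Ass1 and Asl, which rebuild arginine from citrulline, were both low. Averaged over genotypes Ass1 was called higher and Asl lower with EtOH, and the difference between them was not tested. Ass1 (chr2:31470207-31520672, plus strand) was 2.4, 2.6, 2.55 and 3.12 CPM in the 4 WT PF libraries and 4.24, 1.68, 3.42 and 1.72 CPM in the 4 of fat-1 PF mice. It was 3.76, 2.83 and 3.7 CPM in WT EtOH replicates 1 to 3 and 4.85, 3.15, 9.68, 9.01 and 6.33 CPM in fat-1 EtOH replicates 1 to 5. Ass1 was highest in the 2 fat-1 EtOH libraries with the most large intestine markers and lowest in the 2 fat-1 PF libraries with low Slc10a2, and the groups overlapped. Ass1 rose by 1.24 on the log2 scale in fat-1 mice with EtOH (SE 0.34, 2.37-fold higher, adjusted p = 0.0115) and by 0.80 averaged over genotypes (SE 0.26, adjusted p = 0.0247). Neither call held without the 3 libraries with high large intestine markers (0.79, adjusted p = 0.0859, and 0.63, adjusted p = 0.0664), without the 2 fat-1 PF libraries (0.78, adjusted p = 0.153, and 0.57, adjusted p = 0.104) or without all 5 (0.32, adjusted p = 0.461, and 0.40, adjusted p = 0.156). The values rest on 12 to 118 reads a library, and 32.6% of the 75-base windows of Ass1 transcripts also occur in the pseudogene Gm5424, and how reads with several matches were counted is not given in the sources used here.

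Asl (chr5:130011258-130029247, minus strand), the lyase that releases arginine, was the steadiest member, with a 1.57-fold span over the 16 libraries. It was 28.7, 33.3, 31.2 and 27.1 CPM in the 4 WT PF libraries and 31.4, 40.0, 34.4 and 33.3 CPM in the 4 of fat-1 PF mice. It was 25.8, 25.9 and 28.1 CPM in WT EtOH replicates 1 to 3 and 28.3, 32.2, 27.1, 32.7 and 25.4 CPM in fat-1 EtOH replicates 1 to 5. The ranges overlapped in every comparison. Averaged over genotypes Asl fell with EtOH by 0.22 on the log2 scale (SE 0.08, 1.16-fold lower, adjusted p = 0.0382), a call that was lost in 11 of the 16 fits that left out 1 library (-0.24 to -0.17) and without the 3 libraries with high large intestine markers (-0.20, adjusted p = 0.0893).

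**Figure D2:**
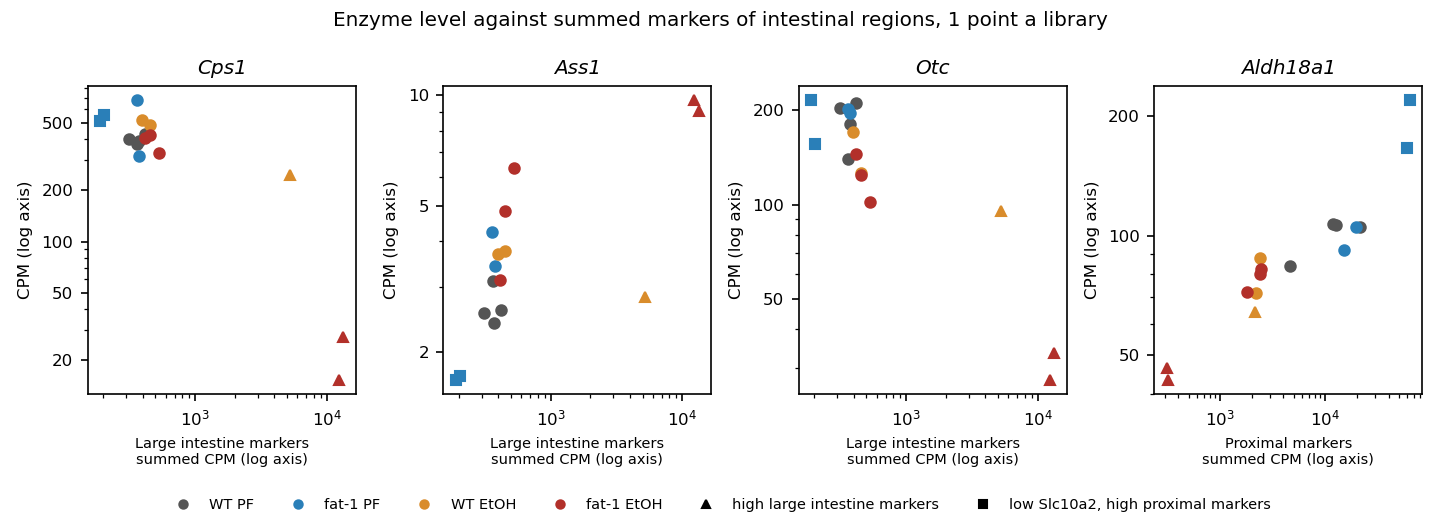
CPM of Cps1, Ass1, Otc and Aldh18a1 against the summed CPM of large intestine markers (Cps1, Ass1, Otc) or proximal small intestine markers (Aldh18a1), both axes logarithmic, 1 point a library and colours for the 4 groups. The 2 fat-1 EtOH libraries with 12386 and 13401 CPM of large intestine markers hold the lowest Cps1 and Otc and the highest Ass1, and the 2 fat-1 PF libraries with the most proximal markers hold the highest Aldh18a1, 219 and 166 CPM.

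Odc1 (chr12:17544794-17551505, plus strand), the entry to polyamine synthesis and a gene of proliferating cells, was the only member without overlap between the PF groups. Of all genes 6.87% had no overlap there. WT PF replicates 1 to 4 had 93.3, 108, 114 and 98.4 CPM, and fat-1 PF replicates 1 to 4 had 163, 158, 115 and 190 CPM. WT EtOH replicates 1 to 3 had 88.3, 105 and 74.3 CPM, and fat-1 EtOH replicates 1 to 5 had 98, 95.8, 130, 119 and 81.5 CPM. Each fat-1 PF library lay above each WT PF library, by a margin of 115 against 114 CPM at the closest. The log2 fold change of fat-1 PF against WT PF was 0.59 (SE 0.17, 1.51-fold higher, unadjusted p = 0.00292), which did not pass adjustment by edgeR (adjusted p = 0.187) and lay just inside the threshold by DESeq2 (adjusted p = 0.0496). DESeq2 adjusts only over genes that pass its own filter on mean counts. Of the 4 fat-1 PF libraries, those with low Slc10a2 had 158 and 190 CPM, and without them the log2 fold change was 0.42 (SE 0.19, unadjusted p = 0.0509). With EtOH, Odc1 fell in fat-1 mice by 0.58 on the log2 scale (SE 0.16, 1.49-fold lower, adjusted p = 0.0112) and averaged over genotypes by 0.40 (SE 0.12, adjusted p = 0.0197). In contrast to Cps1 and Otc, Odc1 was higher in the fat-1 EtOH libraries with high large intestine markers than in the other 3. Without these and WT EtOH replicate 2 the diet difference was larger, 0.74 lower in fat-1 mice (adjusted p = 0.00474) and 0.54 lower averaged (adjusted p = 0.00397). Without the 2 fat-1 PF libraries with low Slc10a2 it was -0.40 (adjusted p = 0.144) and -0.31 (adjusted p = 0.0931). The averaged call of Odc1 was also lost under upper-quartile scaling. The sum of 8 proliferation markers overlapped between the fat-1 groups (368 to 626 CPM in PF mice, 386 to 598 CPM in EtOH mice), and 16.6% of the Odc1 windows occur in pseudogenes as well.

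**Figure D3:**
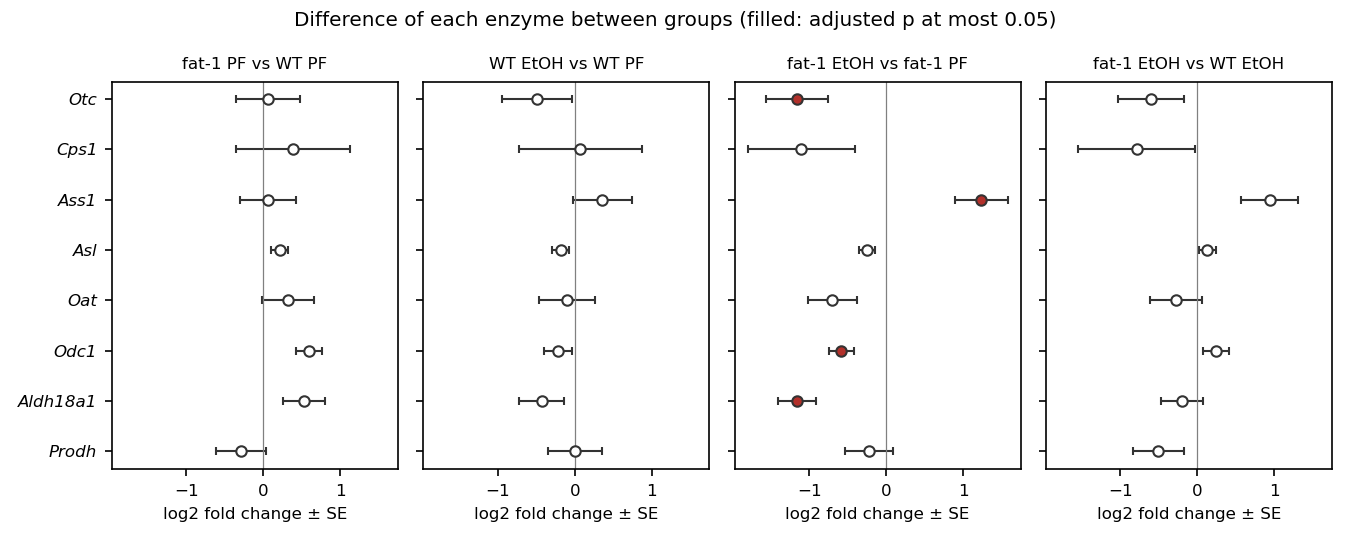
Log2 fold change ± SE of each enzyme in the 4 comparisons between groups, filled where the adjusted p was at most 0.05. The filled points (Otc, Odc1 and Aldh18a1 lower, Ass1 higher) all belong to fat-1 EtOH against fat-1 PF, where Aldh18a1 stands at -1.16, against -0.43 in WT mice.

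Counted over the 8 enzymes, the diet comparisons in fat-1 mice and averaged over genotypes held all the edgeR calls. In fat-1 EtOH against fat-1 PF mice, 3 of 8 fell (Otc, Odc1, Aldh18a1) and 1 rose (Ass1), where 18.8% of all genes tested fell and 18.7% rose. The median log2 fold change of the 8 was -0.64 and that of all genes 0.05. For 2 of the 8 (Otc, Aldh18a1) the groups did not overlap, against 24% of all genes. Averaged over genotypes, 4 of 8 fell (these 3 and Asl) and 1 rose (Ass1), against 17.6% and 18.3% of all genes, with a median of -0.40 against 0.04. None of the 8 was free of overlap between the diets, as 7.79% of all genes were.

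In WT EtOH against WT PF mice 0 of 8 passed edgeR's test, where 0.0796% of all genes did. Of the 8, 0 had an unadjusted p under 0.05. DESeq2 called 0 of 8 and 1.86% of all genes, and limma voom called 0 of 8 and 20.3% of all genes. None of the 8 was free of overlap, as 24.3% of all genes were. The median of the 8 was -0.14 against 0.01 for all genes. In fat-1 PF against WT PF mice 0 of 8 passed by edgeR, which called 0% of all genes, with 1 member (Odc1) at an unadjusted p under 0.05. DESeq2 called 1 (Odc1) and 1.37% of all genes there, and limma voom called 0 and 0.224%. Only Odc1 did not overlap, against 6.87% of all genes. In fat-1 EtOH against WT EtOH mice 0 of 8 passed by edgeR, DESeq2 or limma voom, where 0.00724% of all genes did by edgeR, 0.0362% by DESeq2 and 0.00724% by limma voom. Ass1 alone had an unadjusted p under 0.05 there, 0.0213, and 0 of 8 were free of overlap against 2.45% of all genes. The test of a difference between the diet effects of the genotypes called 0 of 8 and 0% of all genes by each of these tools, with 0 members at an unadjusted p under 0.05 by edgeR. So the calls in fat-1 mice are not shown to differ from WT mice. The comparisons share groups, and the fat-1 PF libraries enter 4 of the 6.

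Leaving out libraries changed which enzymes were called. Without fat-1 EtOH replicate 5, the library rich in B and T cell markers, the same 4 were called in fat-1 mice (37.2% of all genes), and 3 averaged over genotypes (36.7%), with Otc and Asl lost. Without the 3 libraries with high large intestine markers 3 of 8 were called in fat-1 mice and 3 of 8 averaged over genotypes, in both cases Otc, Odc1 and Aldh18a1 and each lower, where 29.7% and 32.9% of all genes were called in either direction. In WT mice 0 of 8 were called by edgeR, with 0 at an unadjusted p under 0.05, against 0.189% of all genes. Without all 5 libraries that stand apart the same 3 were called averaged over genotypes, where 27.6% of all genes were, and in fat-1 mice 2 (Otc, Odc1), where 11.9% of all genes were. Without only the 2 fat-1 PF libraries edgeR called 0 of 8 and 13.9% of all genes in fat-1 mice, with 3 of the 8 at an unadjusted p under 0.05. The share of all genes at that unadjusted p is not given here. Averaged over genotypes it then called 1 (Aldh18a1) and 23.9% of all genes. Aldh18a1 was therefore the only member called averaged over genotypes under each of these choices.

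**Figure D4:**
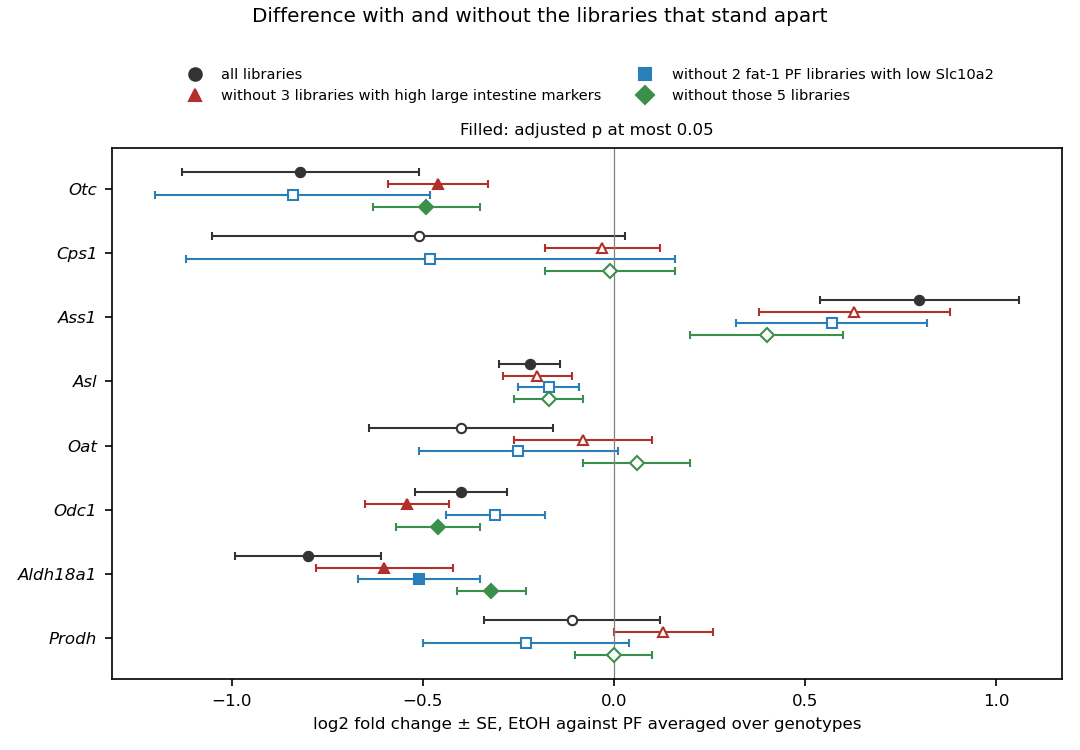
Log2 fold change ± SE of each enzyme for EtOH against PF averaged over genotypes with all 16 libraries, without the 3 libraries with high large intestine markers, without the 2 fat-1 PF libraries with low Slc10a2, and without these 5, filled where the adjusted p was at most 0.05. Aldh18a1 stays filled and goes from -0.80 to -0.32, whereas Ass1 goes from 0.80 to 0.40 and Cps1 from -0.51 to -0.01.

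Around the 8 enzymes, 37 genes of the same pathways were listed and 36 tested. Averaged over genotypes 11 fell with EtOH, 2 rose and 23 did not pass, where 17.6% of all genes fell and 18.3% rose. In fat-1 mice 12 fell, 3 rose and 21 did not pass, where 18.8% of all genes fell and 18.7% rose. In the other 4 comparisons 0 of 36 passed edgeR's test, with 8 at an unadjusted p under 0.05 in WT mice, 7 between the PF groups, 0 between the EtOH groups and 5 in the interaction. In WT mice DESeq2, which called 1.86% of all genes there, called 1 lower, and limma voom, which called 20.3%, called 8 lower and 2 higher. Between the PF groups DESeq2, which called 1.37% of all genes there, called 1 higher and left 22 uncalled. The rest of the 36 got no adjusted p from it. Without the 5 libraries that stand apart, 11 of 36 tested fell and 2 rose averaged over genotypes, where 27.6% of all genes were called, and 10 fell and 0 rose in fat-1 mice, where 11.9% were. Without only the 2 fat-1 PF libraries, 9 fell and 3 rose averaged (23.9% of all genes called), and 7 fell and 1 rose in fat-1 mice (13.9%).

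By pathway, the counts that follow are of the averaged comparison, to be read against the same 17.6% and 18.3% of all genes. Among 11 genes tied to the urea cycle and nitric oxide, 3 fell and 1 rose. Nags, which makes the activator that Cps1 needs, was 53.6 to 99.1 CPM in PF and 20.3 to 57.6 CPM in EtOH libraries and fell by 0.69 on the log2 scale (SE 0.18, adjusted p = 0.00932). Its lowest 2 libraries were fat-1 EtOH replicates 3 and 4 (20.3 and 27.6 CPM), and without the 5 libraries that stand apart it was lower by 0.44 (SE 0.11, adjusted p = 0.0127). Agmat, an agmatinase by name, had the largest fall of that list at 1.58 (SE 0.48, adjusted p = 0.0208), but it was at 35.4 and 41.1 CPM in the fat-1 PF libraries with low Slc10a2, 0.574 and 0.535 CPM in fat-1 EtOH replicates 3 and 4, and did not pass without the 5 libraries (-0.59, adjusted p = 0.0563). Nos1, the neuronal nitric oxide synthase, rose by 1.86 (SE 0.38, adjusted p = 0.00236), from 0.547 to 1.45 CPM in PF to 1.54 to 8.61 CPM in EtOH libraries without overlap, while smooth muscle markers were higher in all EtOH libraries. Its values rest on only 4 to 14 reads in a PF library and 18 to 105 reads in an EtOH library. Its highest 2 libraries were the same fat-1 EtOH replicates (8.61 and 7.49 CPM), and without the 5 libraries it was higher by 1.40 (SE 0.29, adjusted p = 0.00591).

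Of 10 genes of glutamine and glutamate, 4 fell and 1 rose. Glud1, the mitochondrial glutamate dehydrogenase, was 303 to 782 CPM in PF and 150 to 263 CPM in EtOH libraries without overlap, and fell by 1.46 (SE 0.19, adjusted p = 2.4e-04). Glul, glutamine synthetase, rose by 0.92 (SE 0.20, adjusted p = 0.00382). Its level was 57.1 to 106 CPM in PF and 93.2 to 239 CPM in EtOH libraries, the highest 2 being those richest in large intestine markers, and without the 5 libraries it was still higher by 0.54 (SE 0.15, adjusted p = 0.0218).

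Of 5 proline genes tested 2 fell and 0 rose. Aldh4a1, which oxidizes the intermediate that Prodh makes, had the larger fall, 1.82 (SE 0.32, adjusted p = 0.00102), from 66.3 to 245 CPM in PF to 11.6 to 54.7 CPM in EtOH libraries. Of 10 polyamine genes 2 fell and 0 rose. Oaz1, the antizyme that marks ornithine decarboxylase for degradation, was 129 to 269 CPM in PF and 103 to 123 CPM in EtOH libraries and fell by 0.72 (SE 0.10, adjusted p = 3.3e-04). Of the 36 neighbouring genes 11 had separate ranges between the diets, 10 lower and 1 higher with EtOH, against 7.79% of all genes. Glud1, Aldh4a1 and Oaz1 were among them and fell without the 5 libraries too, by 1.24, 1.34 and 0.58.

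**Figure D5:**
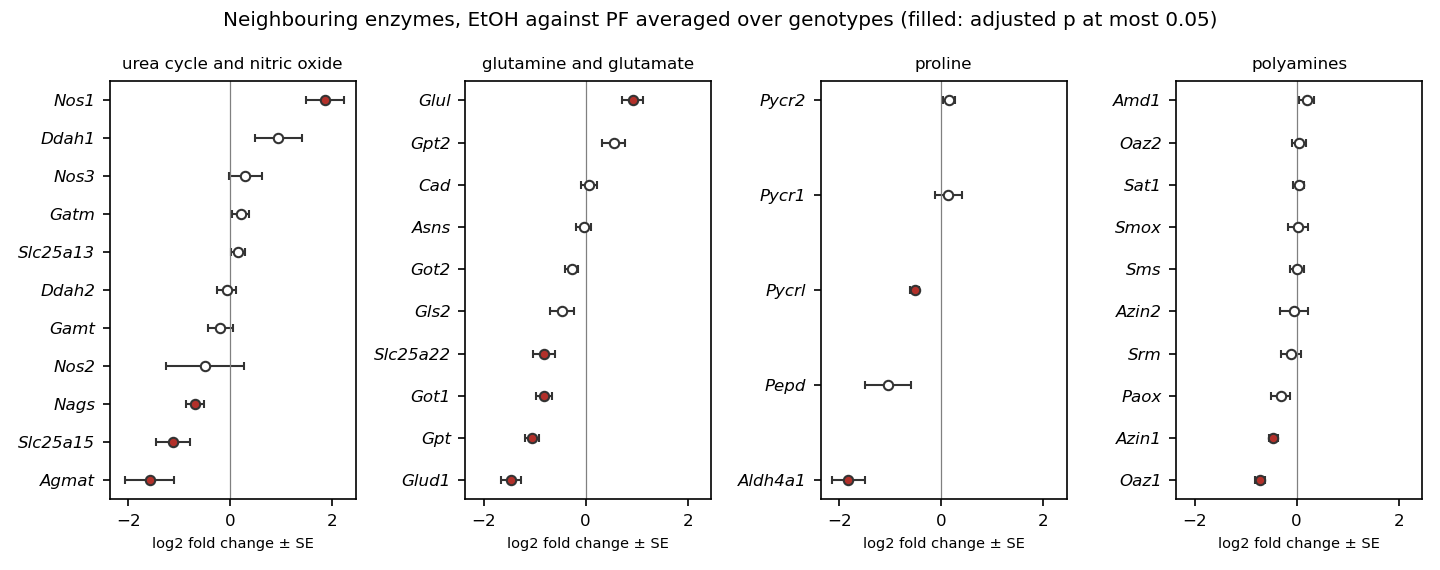
Log2 fold change ± SE of 36 neighbouring genes for EtOH against PF averaged over genotypes, in 4 panels by pathway and ordered by size, filled where the adjusted p was at most 0.05. Of the filled points 11 lie below 0, with Aldh4a1 at -1.82 the lowest, and 2 lie above it, Nos1 at 1.86 and Glul at 0.92.

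For each member called in any comparison, the genes with the most similar course over the 16 libraries were found by the root mean square (RMS) difference of log2 CPM, each gene centred on its own mean. They were Cyp4f14, Me2 and Fam187b for Otc (RMS 0.17 to 0.21), Aldh3b1, Mia2 and Ogdh for Aldh18a1 (0.15 to 0.16) and Bola3, Slc25a10 and 1110065P20Rik for Odc1 (0.13 to 0.15). Ass1 was nearest to Slc39a10, Shisa7 and Mlh3 (0.27 to 0.29), and Asl to Cyhr1, Sec22a and Elp5 (0.08 to 0.09), a closeness that a gene with little change shares with many others. None of these was another of the 8 members.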

How the data were processed

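The study took a segment of terminal ileum from each mouse, prepared stranded poly(A) libraries and sequenced paired reads. Reads were aligned with tophat2 to mm10 with Ensembl transcripts, and the authors deposited raw htseq counts per gene, 1 column a library, with no normalization. The counting options are not given in the sources used here. Ensembl identifiers were matched to symbols, exon lengths and positions with GENCODE M21 (GRCm38). 26 of 21965 identifiers had no entry, and every member had one.

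From the counts, genes were kept by filterByExpr (13811 of 21965), scaled by TMM and tested with edgeR 4.0.16 (R 4.3.3), quasi-likelihood with robust dispersion, 1 mean for each of the 4 groups and all 16 libraries in 1 fit. A gene was called at a Benjamini-Hochberg adjusted p of at most 0.05 over all genes tested, and "rose" and "fell" are used of called genes. In all 6 comparisons were made, 4 between groups, the EtOH effect averaged over genotypes, and the interaction of genotype and diet. The SE is the log2 fold change divided by the square root of the F statistic. Fits with DESeq2 1.42.0 and limma 3.58.1, other scalings and filters, a replicate block and fits without libraries were alternatives. DESeq2 adjusted p only over genes that passed its own filter on mean counts, and its shares are of all 13811 genes tested. The scripts were tested on simulated counts. Figures were drawn with matplotlib 3.10.9.

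The members, neighbouring genes, markers and motifs were chosen with earlier results of these data known, and the fits without the 2 fat-1 PF libraries, alone or with the 3 EtOH libraries, were added after seeing the data, as were 3 of the 4 GATA spellings. Neighbouring genes were named by a fixed rule: the called gene with the largest rise and the largest fall of each list in the averaged comparison, and Glul and Nags. Some genes of the lists, 1 enzyme and 2 neighbouring genes, are not reported here, and counts over the lists leave them out. Region markers were used to describe libraries. Each library is 1 mouse, as the study's methods count them. The lowest chi-square per gene between 2 libraries of a group was 7.55, so none was a copy. With 8422645 to 11438539 counts a library, members other than Ass1 had 186 reads or more in each library.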

Additional observations from a re-analysis of the deposited data

Results flagged for a closer look

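In the groups of 4 or 5 libraries, 24 sets of values (8 enzymes in WT PF, fat-1 PF and fat-1 EtOH mice) were searched for a library far from the rest of its group by Dixon's ratio at the 95% level, which chance flags in about 1 of 20 groups. It marked 1, WT PF replicate 4, in which Aldh18a1 was 83.6 CPM against 105 to 107 CPM in the other 3 libraries. This library also had the smallest sum of proximal small intestine markers of the PF libraries (4612 CPM) and the highest Slc10a2 (1272 CPM). The part of the segment of gut in these values was not tested. The 3 WT EtOH libraries were too few for this search.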

How the results depend on the processing

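Of the 5 calls averaged over genotypes, Aldh18a1 was made in every alternative run, whereas Otc was lost in 12 and Asl in 11 of the 16 fits without 1 library. Leaving out 1 library at a time gave 3 to 6 called members in fat-1 mice (28.5% to 39.4% of all genes), 2 to 5 averaged over genotypes (26.9% to 38.1% of all genes; 2 members without WT EtOH replicate 1 or 3, when Ass1 was among those lost), and 0 in the other comparisons. In fat-1 mice the count of 4 became 3 with limma voom (26.4% of all genes) and with the looser filter (27.7%), Otc being lost in both, 2 with only the 2 groups fitted (23.2%, Otc and Ass1 lost), 3 without the 3 EtOH libraries with high large intestine markers (Ass1 lost), 0 without the fat-1 PF libraries with low Slc10a2 and 2 without all 5 libraries that stand apart (Ass1 and Aldh18a1 lost). These last 2 alternatives were chosen after seeing the data. Averaged over genotypes the count of 5 became 1 without those fat-1 PF libraries. It became 2 under upper-quartile scaling (38.7% of all genes), with Otc, Asl and Odc1 lost. It became 3 with the looser filter (26.4%) and with the stricter filter (37.4%), and both filters lost Otc and Asl. The count was also 3 without the 3 EtOH libraries with high large intestine markers and without all 5. Upper-quartile scaling set the median of all genes at 0.20 in fat-1 mice and 0.14 averaged, against 0.05 and 0.04 with TMM, and the share of higher calls at 69% and 68.2%, against 49.9% and 50.9%. No called member changed sign under it. DESeq2 called 1 member between the PF groups.

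The labels do not say that replicate numbers pair the mice. Deviations from the group means of same-numbered libraries had a mean correlation of -0.0225 over 21 pairs (-0.252 to 0.187), which shows no sign of pairing but cannot exclude it. With a replicate block 4 members were called in fat-1 mice (34.4% of all genes), 3 averaged over genotypes (35%, Asl and Odc1 lost) and 0 in each other comparison. Fat-1 EtOH replicate 5 has no partner and adds nothing to that fit.

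Counts over all genes moved by more than 1.5 times as follows. In WT mice 11 became 257 with DESeq2, 2800 with limma voom, 1103 with only the 2 groups fitted, 2 with the looser and 0 with the stricter filter, 18 with the block, 26 without the 3 EtOH libraries, 468 without the 5, and 0 to 66 without 1 library. In fat-1 mice 5170 became 3086 with only the 2 groups, 1965 without the 2 fat-1 PF libraries and 1626 without the 5. Between the PF groups 0 became 189 with DESeq2, 31 with limma voom and up to 114 without 1 library, and between the EtOH groups 1 became 5 with DESeq2, 0 with the block, 0 with only the 2 groups and 0 without WT EtOH replicate 1 or 3.

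Signs turned only for members that were not called in either fit, and the cause was not tested. Some of these differences were not small with all libraries: log2 fold changes of 0.88 (Ass1) and -0.74 (Aldh18a1) in the interaction, 0.53 (Aldh18a1) between the PF groups and -0.40 (Oat) averaged, each of which turned or came to about 0 without the libraries that stand apart. With limma voom they were Otc (-0.00) and Ass1 (-0.11) between the PF groups, Prodh in WT (0.00) and fat-1 mice (0.12), averaged (0.06) and in the interaction (0.11). Under upper-quartile scaling they were Ass1 between the PF groups (-0.00), Prodh in WT mice (0.05) and Asl in the interaction (0.02). Prodh in WT mice was 0.01 with the looser filter, 0.01 with the stricter one and 0.01 with only the 2 groups. With the block, Cps1 in WT mice was -0.03. Without the 3 EtOH libraries Oat (0.15) and Prodh (0.04) turned in WT mice, Prodh in fat-1 mice (0.22), averaged (0.13) and in the interaction (0.18). Without the 2 fat-1 PF libraries Aldh18a1 between the PF groups was -0.04, Prodh in WT mice 0.00 and Asl in the interaction 0.00. Without the 5 libraries Aldh18a1 between the PF groups was -0.04, Oat 0.17 and Prodh 0.05 in WT mice, Oat 0.06 and Prodh 0.00 averaged, and Ass1 -0.16 and Aldh18a1 0.00 in the interaction. Without 1 library the ranges that crossed 0 were Otc -0.05 to 0.14 and Ass1 -0.24 to 0.22 between the PF groups, Cps1 -0.12 to 0.34, Oat -0.39 to 0.16 and Prodh -0.10 to 0.05 in WT mice, Prodh -0.39 to 0.00 in fat-1 mice and -0.19 to 0.00 averaged, Oat -0.53 to 0.01 between the EtOH groups, and Asl -0.12 to 0.00 in the interaction.

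Groups of 3 to 5 mice with a coefficient of variation of 0.145 (WT PF) to 0.407 (fat-1 EtOH) limit what can be called, and for Ass1 so does its depth of 12 to 118 reads a library.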
